A study of Mus musculus with 3 samples.

Results

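Semaphorins are guidance proteins that steer growing axons, plexins are their receptors, and neuropilins are co-receptors for most of the secreted ones. Described here are the semaphorins other than Sema3e, the receptors other than Plxnd1 and Nrp1, and the intracellular CRMP and MICAL proteins that act below plexins. The members were taken from a list of 36 gene symbols and found by the deposited probe-set annotation. Of these, 35 were measured among 30142 genes in all. Sema4a is not analysed here because its probe set carries a second gene symbol, a microRNA gene.

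RNA was measured on 3 arrays from primary dorsal root ganglion cells of male ICR mice aged 8 to 10 weeks, after 72 h in culture. All cells were kept in DMEM with the serum-free supplement B27. One culture received recombinant SEMA3E and a SEMA3E-blocking IgG (1 µg/ml of each), another received 1 µg/ml SEMA3E alone, and the control culture received neither. ICR is an outbred strain, and the sources used here do not say how many mice each array represents. With 1 array per medium there is no replicate, so no difference below has an error or a test, and precision is limited by how few arrays there are.

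Values are log2(intensity + 1) unless units of intensity are named, and a difference is a log2 difference between 2 arrays. They show brightness of a probe set, and brightness cannot be compared between genes as an amount of RNA. A gene counted as above background when its mean reached 5.48, the 95th percentile of 492 vomeronasal receptor genes, which this tissue is not known to use. Of all genes 17653 did so, and of the 35 measured members 33. Across those 17653 genes 74.9% held the same value on all 3 arrays, and the arrays correlated with Pearson's r from 0.9996 to 0.9997, over genes that are not independent replicates. Equal values do not show equal RNA, since small differences between probes can be lost when they are summarised. The cultures held more than neurons by their markers. Above background lay 12 of 12 neuronal, 8 of 8 satellite glial and 7 of 8 Schwann cell markers measured. So did 8 of 9 fibroblast, 7 of 7 mural cell and 6 of 8 endothelial markers, beside 17653 of all 30142 genes. The 6 of 11 macrophage markers and the 4 of 8 of lymphocytes, mast cells and neutrophils were smaller shares than that of all genes. The endothelial markers above background were also dim, from 5.66 (Kdr) to 7.15 (Emcn). The counts of the endothelial, macrophage and lymphocyte, mast cell and neutrophil lists do not show that such cells were present.

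In sensory ganglia, class 3 semaphorins are best known for collapsing growth cones through complexes of a neuropilin with an A-type plexin. Transmembrane semaphorins of classes 4 to 6 and the membrane-anchored SEMA7A act at contacts between cells and bind plexins directly. The cytoplasmic part of a plexin is a GTPase-activating protein for small Ras and Rap GTPases. CRMPs bind tubulin and MICALs oxidise actin, so each links plexins to the cytoskeleton.

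Of the 33 members above background, 26 were identical on all 3 arrays and 7 were not. The 7 were 3 membrane-bound semaphorins (Sema6a, Sema6d and Sema7a), 2 A-type plexins (Plxna2 and Plxna4) and 2 CRMP genes (Crmp1 and Dpysl2). All 7 were lower with SEMA3E than in control medium and 0 were higher, where 12.3% of all 17653 genes were lower and 6.21% higher. In 5 of them the array with blocking IgG held exactly the control value, and in Crmp1 and Sema6d it held the SEMA3E value.

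**Figure D1:**
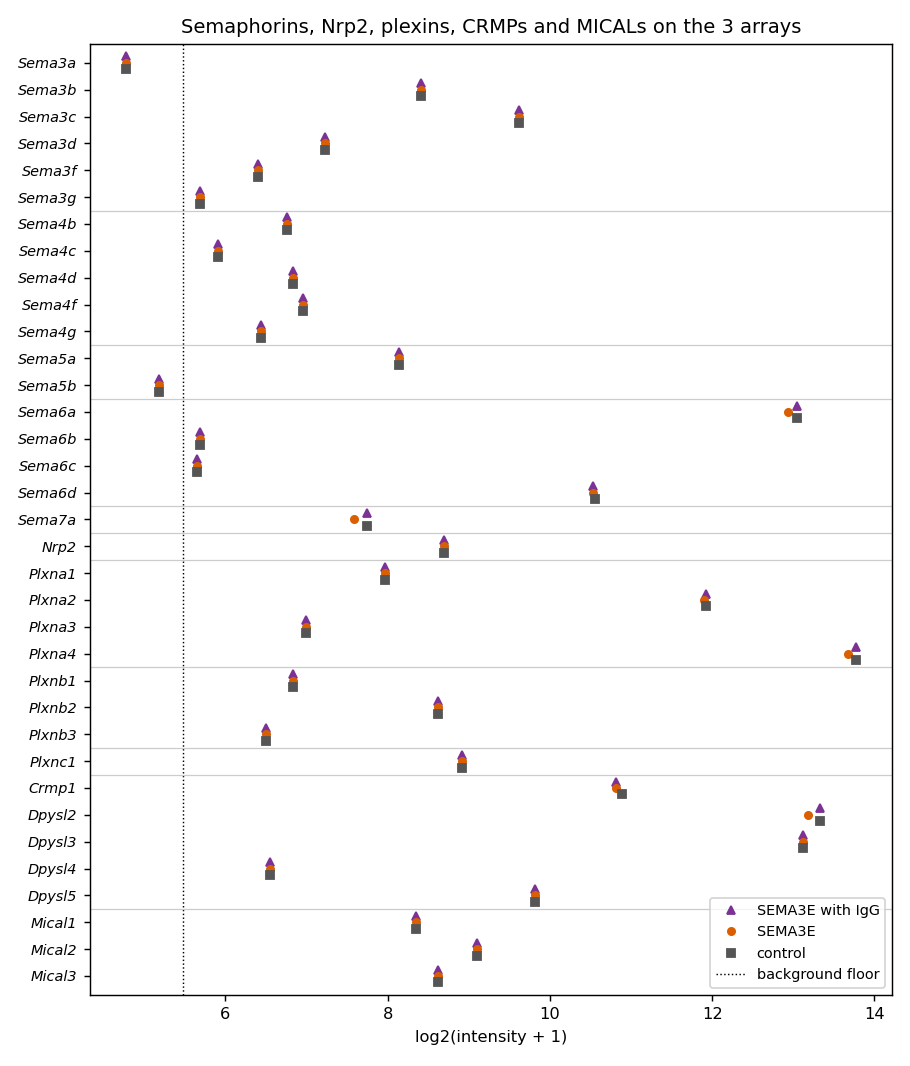
Brightness of the 35 measured genes, as log2(intensity + 1), on the arrays with SEMA3E and IgG (triangles), SEMA3E (circles) and control medium (squares), drawn at slightly different heights, with lines between gene families and the floor at 5.48 dotted. The SEMA3E circle stands visibly left of the control square in Sema6a, Sema7a, Plxna4, Crmp1 and Dpysl2, and Sema3a and Sema5b lie left of the floor.

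Among the ligands, the secreted class 3 semaphorins were identical on all 3 arrays. Sema3a, the classical repellent of nociceptor axons, read 4.78, which is below the floor. Sema3c lay at 9.62, Sema3b at 8.41, Sema3d at 7.23, Sema3f at 6.40 and Sema3g at 5.68. SEMA3F and SEMA3G act through neuropilin 2, whose gene Nrp2 lay at 8.70 on each array. The class 3 genes therefore gave 0 differences in each comparison.

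The transmembrane class 4 semaphorins were identical across the arrays as well, at 6.96 (Sema4f), 6.83 (Sema4d, a ligand of plexin B1), 6.77 (Sema4b), 6.44 (Sema4g) and 5.91 (Sema4c, a ligand of plexin B2). Class 5 semaphorins carry thrombospondin repeats beside the semaphorin domain. Sema5a lay at 8.14 on each array, and Sema5b at 5.18, below the floor.

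Of the 4 class 6 semaphorins, which are transmembrane ligands of A-type plexins, 2 had unequal values. Sema6a, a ligand of plexins A2 and A4, had 8477 intensity units with SEMA3E and IgG, 7849 with SEMA3E and 8477 in control medium. The SEMA3E array was thus the low one, with a log2 difference from control of -0.111. After a loess correction for brightness that difference was -0.037. The same correction left the SEMA3E against control differences of Sema6d, Sema7a and Crmp1 unchanged. Most genes held equal values, so the fitted trend rests largely on ties. The part of brightness in these differences was not tested. Sema6d, a ligand of plexin A1, had 1480 units with SEMA3E and IgG, 1480 with SEMA3E and 1503 in control medium, a log2 difference of -0.022 in each case. Both SEMA3E-containing media lay below control for this gene. Sema6b (5.69) and Sema6c (5.65), whose values lay just above the floor, were identical in all media.

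Sema7a encodes a semaphorin held to the membrane by a lipid anchor, which binds plexin C1 and beta-1 integrins and promotes axon growth. It had 214 units with SEMA3E and IgG, 192 with SEMA3E and 214 in control medium. Its log2 difference of -0.159 between SEMA3E and control, or -10.5%, was the largest among the 33 members. Of the genes of like brightness, in the third of 6 equal classes counted from the dim end, 1.46% were lower by at least as much. Its receptor gene Plxnc1 stayed at 8.92 on all 3 arrays.

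Among the receptors, 2 of the 4 A-type plexin genes had unequal values. Plxna4 encodes plexin A4, which signals for SEMA3A together with neuropilin 1 in sensory neurons and also binds class 6 semaphorins. It had 13994 units with SEMA3E and IgG, 13032 with SEMA3E and 13994 in control medium, a log2 difference of -0.103 between SEMA3E and control, and of -0.044 after the loess correction. Plxna2, a receptor of SEMA6A, had 3875 units with SEMA3E and IgG, 3836 with SEMA3E and 3875 in control medium. Its difference of -0.015 was the smallest of the 7, at -1.01%, and after loess it was -0.0080.

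Plxna1 (248 units) and Plxna3 (127 units) were identical on the 3 arrays. So were the B-type plexin genes Plxnb2 (8.62), Plxnb1 (6.83) and Plxnb3 (6.51), which encode receptors of class 4 semaphorins.

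CRMPs, first described as mediators of semaphorin 3A signals, gave 2 unequal genes of 5. Dpysl2 encodes CRMP2, which binds tubulin dimers and favours microtubule assembly, and which loses that binding when phosphorylated by CDK5 and GSK3. It had 10281 units with SEMA3E and IgG, 9291 with SEMA3E and 10281 in control medium, a log2 difference of -0.146 or -9.63% between SEMA3E and control. Of all genes above background 2.21% were lower by at least as much, and 4.38% of those in the brightest sixth. Crmp1 had 1805 units with SEMA3E and IgG, 1805 with SEMA3E and 1897 in control medium, a difference of -0.072. With the IgG present Crmp1 lay no nearer to control, unlike Dpysl2.

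The other CRMP genes were identical in all media: Dpysl3 (CRMP4) at 13.12, Dpysl5 (CRMP5) at 9.82 and Dpysl4 (CRMP3) at 6.55. Dpysl3 was the single member of the brightest sixth with equal values. The MICAL genes, which encode monooxygenases that disassemble actin filaments below A-type plexins, were also identical, at 9.10 (Mical2), 8.62 (Mical3) and 8.35 (Mical1).

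**Figure D2:**
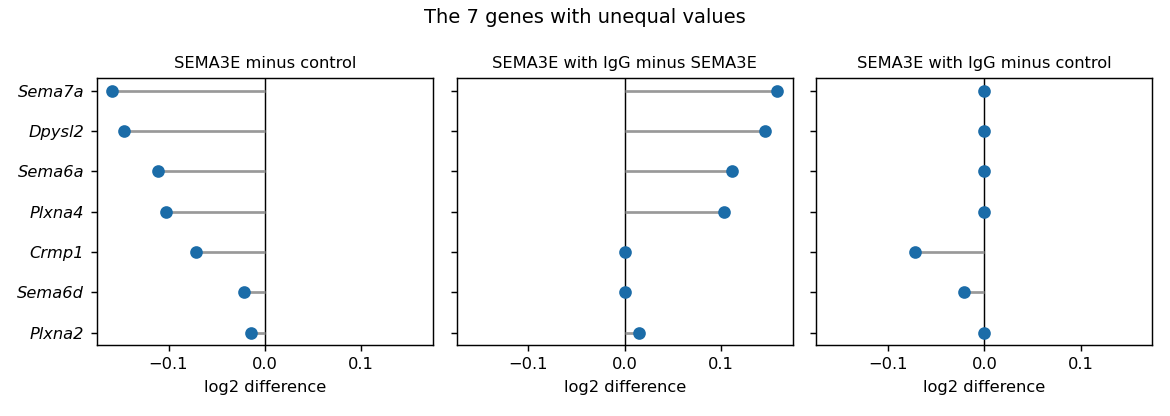
Log2 differences of the 7 genes with unequal values, for SEMA3E minus control (left), SEMA3E with IgG minus SEMA3E (middle) and SEMA3E with IgG minus control (right). Points left of 0 are lower in the medium named first: all 7 lie left of 0 in the left panel, 5 lie right of 0 in the middle and 2 lie left of 0 in the right panel.

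Of the 7 genes with unequal values 4 have an entry in the RefSeq promoter table for GRCm38.p6, and the sequences of 3 are shown as examples of both patterns: Sema7a and Plxna2, low with SEMA3E alone, and Crmp1, low in both SEMA3E media. Sema6d, the fourth, is not shown. Each is the 250 bases before a transcription start, on the + strand, with matches to the GC box GGGCGG, read on both strands, in capitals. Crmp1 has 2 annotated starts.
Sema7a, chr9:57939862-57940111: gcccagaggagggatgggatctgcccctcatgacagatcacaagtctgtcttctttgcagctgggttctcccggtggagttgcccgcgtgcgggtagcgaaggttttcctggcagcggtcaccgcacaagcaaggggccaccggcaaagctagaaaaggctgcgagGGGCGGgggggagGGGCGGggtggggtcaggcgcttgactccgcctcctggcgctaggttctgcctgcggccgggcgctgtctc
Plxna2, chr1:194619579-194619828: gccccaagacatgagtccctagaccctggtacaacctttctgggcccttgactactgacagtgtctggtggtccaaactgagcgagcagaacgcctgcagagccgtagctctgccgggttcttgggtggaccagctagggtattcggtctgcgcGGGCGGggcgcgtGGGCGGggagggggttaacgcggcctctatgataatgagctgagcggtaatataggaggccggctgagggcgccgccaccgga
Crmp1, upstream start, chr5:37241808-37242057: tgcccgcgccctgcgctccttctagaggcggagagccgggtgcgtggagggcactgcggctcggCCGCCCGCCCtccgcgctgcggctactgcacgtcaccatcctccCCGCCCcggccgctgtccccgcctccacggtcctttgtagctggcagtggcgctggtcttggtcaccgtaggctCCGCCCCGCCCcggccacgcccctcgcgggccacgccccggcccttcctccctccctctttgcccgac
Crmp1, downstream start, chr5:37245514-37245763: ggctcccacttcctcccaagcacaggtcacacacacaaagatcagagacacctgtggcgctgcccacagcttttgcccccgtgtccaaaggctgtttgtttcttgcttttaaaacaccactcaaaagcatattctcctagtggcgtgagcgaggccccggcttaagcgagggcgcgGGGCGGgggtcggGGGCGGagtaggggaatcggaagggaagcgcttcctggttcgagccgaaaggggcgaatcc

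The GC box occurred 2 times in the Sema7a window, 2 times in that of Plxna2, and 5 and 2 times in the upstream and downstream windows of Crmp1, where some matches overlap. It was present in 67.6% of the 37 windows of the 27 measured members found in the table, against 32.7% of all 32851 windows of 250 bases. Those 32851 windows were not limited to genes above background, and no share was taken over such genes alone. The other motifs searched in the same windows, also on both strands, were CCAAT (21.6% of the members' windows against 33.8% of all), TGANTCA, the AP-1 site (8.11% against 6.75%), CACGTG, an E-box (8.11% against 6.02%), and TGACGTCA, the cAMP response element (0 of 37 against 1.55%). These matches describe letters in a window and do not show that a factor binds there.

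The comparison of SEMA3E with control asked which transcripts differ after exposure to SEMA3E. The 7 lower members were 21.2% of the 33 above background, beside the 12.3% of all genes. The median difference was 0 for the members and 0 for all genes. At a size of at least 1.1-fold 2 members were lower, Sema7a and Dpysl2, and 0 higher, where 2.36% of all genes were lower by that much and 1.38% higher. No share has an error. Counts at any size rest on equal values, which other scalings break: after quantile normalization 27 of the 33 members were lower and 6 higher, beside 70.4% and 26.4% of all genes, and after centring 7 were lower and 26 higher, beside 11.5% and 88.5%.

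Lower values were more frequent among bright genes in general, and the members that differed were mostly bright. In the brightest sixth of genes, from 10.81 upward, 29.1% of all genes and 5 of the 6 members were lower with SEMA3E. In the other sixths together, 9% of all genes and 2 of 27 members (7.41%) were lower, so that outside the brightest sixth the members lay near the background. Those 2 were Sema7a, the one lower gene of 4 members in sixth 3, where 6.93% of all genes were lower, and Sema6d, the one of 3 members in sixth 5, where 17.8% were. The 5 in the brightest sixth were Plxna4, Dpysl2, Sema6a, Plxna2 and Crmp1.

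**Figure D3:**
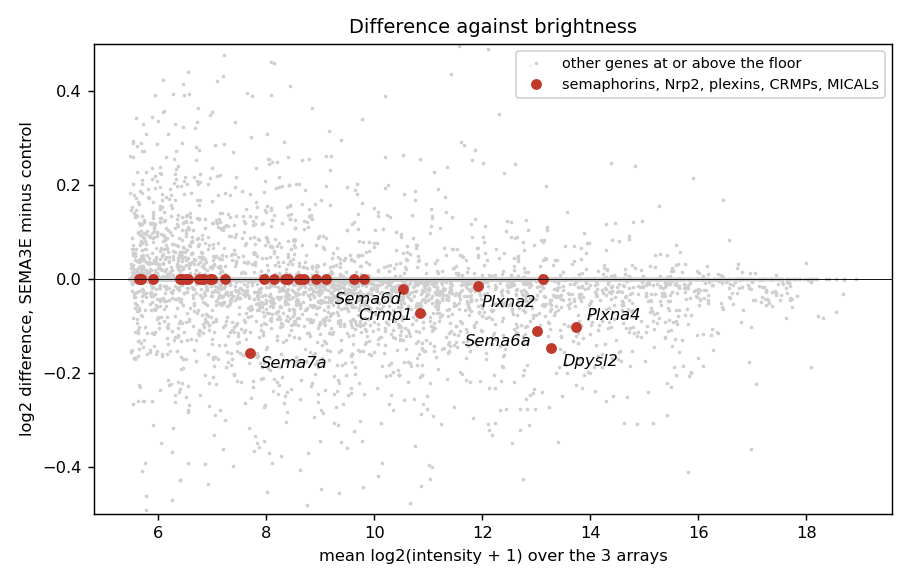
Log2 difference between SEMA3E and control (vertical axis) against mean brightness on the 3 arrays (horizontal axis) for genes above background, with the semaphorin, Nrp2, plexin, CRMP and MICAL genes in red. The 7 named genes lie below 0, the other 26 lie on 0, and 42 genes beyond ±0.5 are outside the frame.

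**Figure D4:**
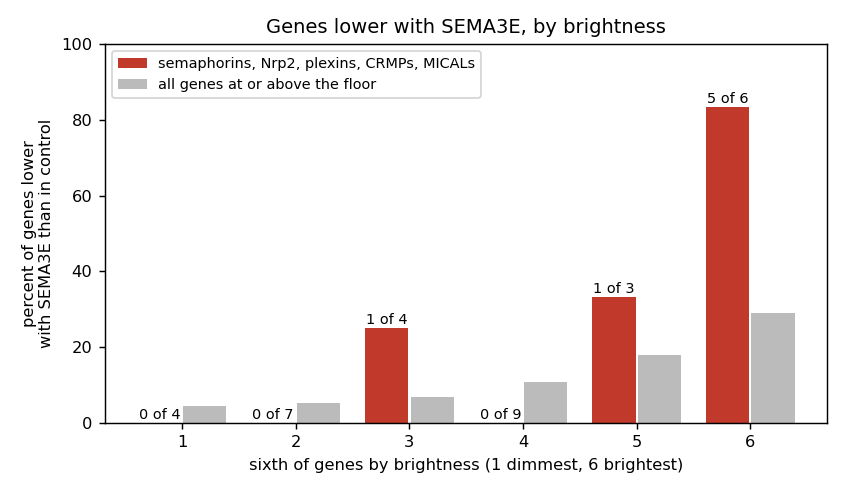
Percent of genes lower with SEMA3E than in control medium in each sixth of brightness, for the semaphorin, Nrp2, plexin, CRMP and MICAL genes (red, with counts) and for all genes above background (grey). The red bar stands at 5 of 6 in the brightest sixth, where the grey bar is at 29.1%, and at 0 in sixths 1, 2 and 4.

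Markers of sensory neurons were also mostly lower. Of 12 such markers 8 were lower with SEMA3E than in control, 0 higher and 4 identical, beside the 12.3% of all genes that were lower (29.1% in the brightest sixth), with a median difference of -0.025, and all 12 lay above background. Their summed intensity was 370269 units with SEMA3E and IgG, 369732 with SEMA3E and 375745 in control medium. The sum was low in both SEMA3E media, as were the single markers Tubb3, Snap25, Nefl, Nefm, Nefh and Syp. Dpysl2, Plxna4, Sema6a, Sema7a and Plxna2 were low with SEMA3E alone, as were the neuronal markers Avil and Elavl3. Satellite glial markers summed to 14522 units with SEMA3E and IgG, 14949 with SEMA3E and 15112 in control medium, and 3 of 8 were lower and 1 higher with SEMA3E than in control. Schwann cell markers summed to 141872 units with SEMA3E and IgG, 142909 with SEMA3E and 144305 in control medium, and 2 of 7 were lower and 0 higher. Endothelial markers summed to 567 units with SEMA3E and IgG, 567 with SEMA3E and 575 in control medium, with 1 of 6 lower and 0 higher. The sums of the other marker lists were higher with SEMA3E than in control. Mural cell markers summed to 14406 units with SEMA3E and IgG, 14414 with SEMA3E and 13589 in control medium, with 1 of 7 higher and 0 lower. Macrophage markers summed to 4275 units with SEMA3E and IgG, 4362 with SEMA3E and 4104 in control medium, with 2 of 6 higher and 1 lower, and Csf1r, Ptprc, Itgam, C1qb and Mrc1 lay below the floor. Fibroblast markers summed to 16605 units with SEMA3E and IgG, 16773 with SEMA3E and 16669 in control medium, with 1 of 8 higher and 2 lower. Markers of lymphocytes, mast cells and neutrophils summed to 1182 units with SEMA3E and IgG, 1236 with SEMA3E and 1143 in control medium, with 2 of 4 higher and 1 lower. Each sum is weighted to its brightest genes, such as Uchl1 (17.65 on each array) among neuronal and Pmp22 (17.00 on each array) among Schwann cell markers. The sums are therefore no measure of cell number. They also include measured markers below the floor, which the counts beside them leave out. The part of these cell types in the result was not tested. In RNA from whole cultures fewer cells of a type and less RNA per cell cannot be told apart.

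The comparison of SEMA3E with IgG against SEMA3E alone addressed the effect of the antibody on cells exposed to SEMA3E. Of the 33 members 5 (15.2%) were higher with the IgG and 0 lower, where 10.2% of all genes were higher and 10.3% lower. These were Sema7a (0.159), Dpysl2 (0.146), Sema6a (0.111), Plxna4 (0.103) and Plxna2 (0.015), and the median was 0 for members and for all genes. After loess Sema6a gave 0.040, Plxna4 0.044 and Plxna2 0.024, and after quantile normalization Plxna2 gave 0.0060. With all values unequal after quantile normalization, 14 members were higher and 19 lower, beside 38.5% and 58.6% of all genes. At 1.1-fold or more 2 members were higher, Sema7a and Dpysl2, and 0 lower, where 2.67% of all genes were higher by that much and 2.08% lower. In the brightest sixth 4 of 6 members were higher, against 22.1% of all genes there, and in the rest 1 of 27, against 7.76%.

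Both of these comparisons contain the SEMA3E array, so a low reading on that array gives a negative difference in one and a positive one in the other. All 3 values of a gene can be read together instead, in patterns that rest on equal deposited values and count differences of any size. Quantile normalization breaks that equality. With IgG against control Dpysl2 then gave -0.011 and Sema6a 0.016. A SEMA3E value below 2 identical others was found in 5 of the 33 members (15.2%) and in 3.68% of all genes above background. In the brightest sixth the pattern was found in 4 of 6 members and 7.48% of all genes. An IgG array that differed from 2 identical others was found in 0 members and 6.56% of all genes, and 3 different values in 0 members and 7.79% of all genes.

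SEMA3E with IgG was last set against control medium, to see which differences are found with the antibody present. Of the 33 members 2 (6.06%) were lower and 0 higher, where 11.4% of all genes were lower and 7.59% higher. The 2 were Crmp1 (-0.072) and Sema6d (-0.022, or -0.049 after quantile normalization), and 31 were identical. After quantile normalization 27 were lower and 5 higher, beside 80.7% and 16.6% of all genes, and after centring 2 were lower and 31 higher, beside 10.8% and 89.2%. No member differed by 1.1-fold, where 2.45% of all genes were lower and 2.11% higher by that much.

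SEMA3E and its own receptor are not among the members but share the pathway. Sema3e read 5.93 on each array. Plxnd1 read 10.88 with SEMA3E and IgG, 10.67 with SEMA3E and 10.53 in control medium, so that it was highest on the IgG array, where none of the other plexin genes exceeded its control value.

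Genes outside the members that are known to act with plexins, Sema3e and Plxnd1 included, were counted from a list of 62. Of these 55 were measured and 53 lay above background. With SEMA3E against control 10 of the 53 were lower (18.9%), 2 higher and 41 identical, with a median of 0. Among all genes 12.3% were lower and 6.21% higher, but 29.1% were lower in the brightest sixth and 9% below it. Of the lower genes L1cam, Chl1, Arhgef11, Rac1, Cdk5, Gsk3a and Gsk3b lay in that sixth, and Farp2, Ssh1 and Evl below it. L1cam, an adhesion molecule that forms part of the SEMA3A receptor complex, read 12.49 with SEMA3E and IgG, 12.31 with SEMA3E and 12.46 in control medium. Its differences were -0.15 for SEMA3E against control and 0.182 for the IgG against SEMA3E alone. Gsk3a (-0.042), a kinase of CRMP2, and Arhgef11 (-0.041), whose product binds B-type plexins, were also lower with SEMA3E than in control medium. Dyrk2 (0.083), a kinase that primes CRMP4 for GSK3, was higher.

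With IgG against SEMA3E alone, 8 of the 53 were higher, 1 lower and 44 identical. Among all genes 10.2% were higher and 10.3% lower, and in the brightest sixth 22.1% were higher. The one lower was Cdk5, a kinase of CRMP2 in SEMA3A signalling, which read 15.23 with SEMA3E and IgG, 15.38 with SEMA3E and 15.40 in control medium, a difference of -0.154. Arhgef11 (0.089) and Gsk3a (0.040) were among the higher ones. With IgG against control 4 were higher and 5 lower, beside 7.59% higher and 11.4% lower among all genes, led after Plxnd1 by Cdk5 (-0.175) and Dyrk2 (0.110), with Arhgef11 at 0.048 and L1cam at 0.032. By group, the 10 co-receptors had 2 lower and 0 higher with SEMA3E against control, the 11 exchange factors, GTPase-activating proteins and adaptors 2 and 0, the 12 small GTPases 1 and 0, the 9 kinases 3 and 1, and the 9 actin and adhesion effectors 2 and 0. Sema3e and Plxnd1, the remaining group, had 0 lower and 1 higher, Plxnd1.

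3 further families of axon guidance genes were read in the same way, from a list of 41, of which 38 were measured and 28 lay above background. With SEMA3E against control 4 of the 28 were lower (14.3%, where 12.3% of all genes were), 0 higher and 24 identical. That compares with 7 of the 33 semaphorin, plexin, CRMP and MICAL genes, but the lists differ in brightness. The brightest of the 28, Robo2 (10.50), lay below the brightest sixth. Below that sixth 2 of 27 members (7.41%) and 9% of all genes were lower. The difference between these shares was not tested. The 14 ephrins and Eph receptors had 1 lower, Efnb1 (-0.132), the 9 netrins and netrin receptors 2, Ntn4 (-0.036) and the netrin receptor gene Neo1 (-0.030), and the 5 slits and robos 1, Slit1 (-0.053). With IgG against SEMA3E alone 2 were higher, Neo1 (0.030) and Slit1 (0.026), and 0 lower. With IgG against control Efnb1 (-0.132), Ntn4 (-0.036) and Slit1 (-0.027) were lower and 0 higher, so that Neo1 alone of the 4 returned the control value on the IgG array.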

How the data were processed

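Per the labels, RNA was purified with TRIzol and a Promega column kit, amplified and biotin-labelled (GeneChip WT Pico), and each medium has 1 array. Per the submitters' processing notes the authors used Affymetrix Expression Console to make the deposited intensity values. For its version, the summary and normalization methods and the build, the entry is: not given in the sources used here. Values were taken as log2(intensity + 1) of the deposited table of 65956 probe sets.

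Probe sets were named by the platform annotation (30604 with 1 symbol, 2146 with several, 33206 with none), and 827 symbols were updated through gene numbers with a RefSeq table of GRCm38.p6. The brightest probe set of each gene was kept, and each of the 35 measured members has 1. All members were named, and of the other lists the 5 members furthest apart in each comparison. The members and lists were chosen with earlier results of these data known. No test was possible with 1 array per medium, so genes were counted as higher, lower or identical at any size and at 1.1-fold, beside the same over all 17653 genes above the floor. The alternatives were centring, loess, quantile normalization, an offset of 16, the dimmest probe set per gene, no floor, and a floor at the 99th percentile. A self-check used simulated arrays that were equal except for known shifts without noise. It tests the arithmetic of the differences, and not the counts, the floor or how the alternatives perform on data like these. Tables were handled in pandas 2.3.3 and numpy 2.4.6 under Python 3.11.15, loess came from statsmodels 0.14.6, and figures from matplotlib 3.10.9.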

Additional observations from a re-analysis of the deposited data

How the results depend on the processing

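At a size of at least 1.1-fold, in place of any size, 2 rather than 7 members were lower with SEMA3E than in control, 2 rather than 5 were higher with IgG than with SEMA3E alone, and 0 rather than 2 were lower with IgG than in control. Among members unequal in the deposited values the counts were the same or within 1.5 times under the other alternatives, but members with equal values cannot enter those counts. A count of all 33 members, added after the data were seen, gave for SEMA3E against control 26 higher after centring, 1 higher after loess, and 6 higher and 27 lower after quantile normalization. For IgG against SEMA3E alone it gave 1 lower after loess and 14 higher and 19 lower after quantile normalization, and for IgG against control 31 higher after centring and 5 higher and 27 lower after quantile normalization. Of 98 values of the 7 named genes that were unequal in the deposited values, 0 changed sign under 7 alternatives and 9 moved by more than 1.5 times. The floors and the choice of probe set cannot change a member's value here, and the offset cannot change its sign. Centring could not reverse one either, since its shift was smaller than the smallest unequal difference (Plxna2, 0.015 in size). Loess left Sema6d, Sema7a and Crmp1 unchanged, and every value of the 7 genes with IgG against control. Only loess on the remaining values and quantile normalization could therefore reverse a sign. All 9 moves came from centring, loess and quantile normalization. Of 49 values that were equal 12 were no longer 0, by at most 0.024. Among the 9 were Sema6a and Plxna4 after loess (-0.037 and -0.044 with SEMA3E against control). Between SEMA3E and control, Dpysl2 ranged from -0.146 to -0.112, Sema7a from -0.164 to -0.148 and Crmp1 from -0.072 to -0.065. No member has a second probe set with 1 symbol, so the choice of probe set changed no member. Centring moved the arrays by 0.0062. No paired analysis was possible because each medium has 1 array with no replicate. Signals near the floor, such as those of Sema6b, Sema6c and Sema3g, leave little room to show a lower level.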
